A study of Mus musculus with 4 samples.

Results

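The olfactory receptor genes of mouse chromosome 7 were examined for occupancy by CTCF in the heart. The members were the protein-coding genes of that chromosome whose symbol begins with Olfr and a digit, which gave 244 of the 1135 Olfr genes and of the 21938 protein-coding genes in the annotation. They carry 243 symbols, because Olfr290 names a pair of overlapping gene models. Neighbours less than 500 kb apart were joined, which gave 8 clusters with 5.62 Mb in all, and the 100 kb on either side of each cluster were taken as its borders (left at the lower coordinates, right at the higher). The conservative peak list, made by the authors from both pools of hearts, placed 44 summits inside the clusters and 46 in the borders, out of 3462 on chromosome 7 and 54309 in all. A summit is the base of highest signal within a peak, and its signal is the score deposited by the authors, which has no stated unit. Hbb genes were left out, as was the interval from the first to the last of the 5 Hbb genes that lie within the largest cluster (chr7:103812524-103853216, which held 0 summits).

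CTCF was immunoprecipitated from hearts of adult female B6CASTF1/J mice aged 2 months, first-generation hybrids between the strains C57BL/6J and CAST/EiJ. There were 2 pools, G and H, each of 2 heart biosamples, and each pool was sequenced as 2 libraries. No treatment and no second genotype was part of the series, so the comparisons are between places in the genome. The lists are on mm10, a C57BL/6J sequence, and the alleles of the parents are not separated in them. Read totals were not analysed here, so the depth is unknown, and the lists hold no expression values by which the labelled tissue could be checked.

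Olfactory receptors are G protein-coupled receptors that bind odorants at the surface of sensory neurons in the nose. Each such neuron uses 1 receptor allele, and the other receptor genes of that cell stay silent in compact chromatin. The genes arose by repeated duplication and stand in long arrays. The largest array of chromosome 7 surrounds the beta-globin genes and holds the class I receptors, which resemble those of fish, whereas the other arrays hold class II receptors. CTCF is a zinc-finger protein that binds an asymmetric DNA motif and, with cohesin, holds the ends of chromatin loops.

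The sites themselves are shown first, because the results turn on whether the sequence under a summit is a CTCF site. Each line gives 30 bases 5′ to 3′ on the strand of the 12-base CTCF core, and capitals mark that core. The core was called with at most 1 mismatch within 100 bp of the summit. Only summits with a core could be printed, and 12 of 44 inside and 18 of 46 in the borders had none. The summit near the start of Olfr658 is among those without a core. The first 3 lines are the sites near the starts of member genes, at chr7:102695576-102695587 on the plus strand (Olfr557), chr7:102665527-102665538 on the plus strand (Olfr556) and chr7:108851360-108851371 on the plus strand (Olfr516). The next 3 lines are strong sites inside the largest cluster, at chr7:104199990-104200001 on the plus strand between Olfr649 and Trim6, chr7:102507018-102507029 on the plus strand near Olfr545, and chr7:104231419-104231430 on the minus strand in Trim6. The last 2 lines are the strongest border sites, at chr7:108934152-108934163 on the minus strand beside Eif3f and chr7:105412080-105412091 on the plus strand near Cnga4.
Olfr557 site: tccacatggCCACAAGAGGGCagcatccaa
Olfr556 site: taaaagaagTCACAAGGTGGCagcagatct
Olfr516 site: ctagcttctCCACTGGGGGGCcctatgttc
Olfr649 to Trim6 site: accaactggTCAGTAGGTGGCgctaatgga
Olfr545 site: tcagaaatgTCACAAGGTGGCacccaagca
Trim6 site: tcaaaatgtCCACCAGGAGGCgctggagat
Eif3f border site: acacagttgCCACCAGGTGGCggcacagag
Cnga4 border site: cagatgcggCCAGCAGAGGGCgccaggttc

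CTCF summits were sparse inside the receptor clusters. The clusters held 7.82 summits per Mb (95% Poisson interval 5.69 to 10.5), against 28.8 per Mb in the borders (21.0 to 38.3). The ratio of the densities was 0.272, with an exact 95% interval of 0.176 to 0.421 that leaves out 1. The rest of chromosome 7 outside the clusters held 25.1 summits per Mb, and the ratio against it was 0.312 (0.226 to 0.420). These intervals cover the counting of summits only, and summits of 1 cluster are not independent replicates. The 2 pools taken alone gave 43 summits inside and 49 in the borders for pool G (ratio 0.250, 0.162 to 0.384) and 42 inside and 42 in the borders for pool H (ratio 0.285, 0.181 to 0.447).

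The ground inside and outside the clusters also differed in gene content. Starts of other coding genes numbered 4.27 per Mb inside and 22.5 per Mb in the borders, and CTCF is often found near promoters. Away from any annotated transcription start by more than 1 kb, 34 summits in 4.46 Mb remained inside and 39 in 1.41 Mb in the borders. The densities there were 7.63 and 27.6 per Mb and the ratio was 0.277 (0.169 to 0.450), close to the ratio over all ground.

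The 8 clusters were uneven. Cluster 5, from Olfr543 to Olfr692 (chr7:102476579-105369355), holds 129 genes or 52.9% of the members, and it held 33 summits or 75.0% of those inside. Its density was 11.6 per Mb (7.96 to 16.2) inside and 20.0 per Mb (5.45 to 51.2) in its borders, which held only 4 summits. The ratio of 0.579 had an interval of 0.206 to 2.25, so no difference between this cluster and its own borders was detectable. The other 7 clusters, with 115 genes in 2.77 Mb, held 11 summits or 3.97 per Mb (1.98 to 7.10) inside and 42 summits or 30 per Mb in their borders. Their ratio was 0.132 (0.0614 to 0.261). The density inside the largest cluster was 2.92 times that inside the others (1.44 to 6.39).

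**Figure D1:**
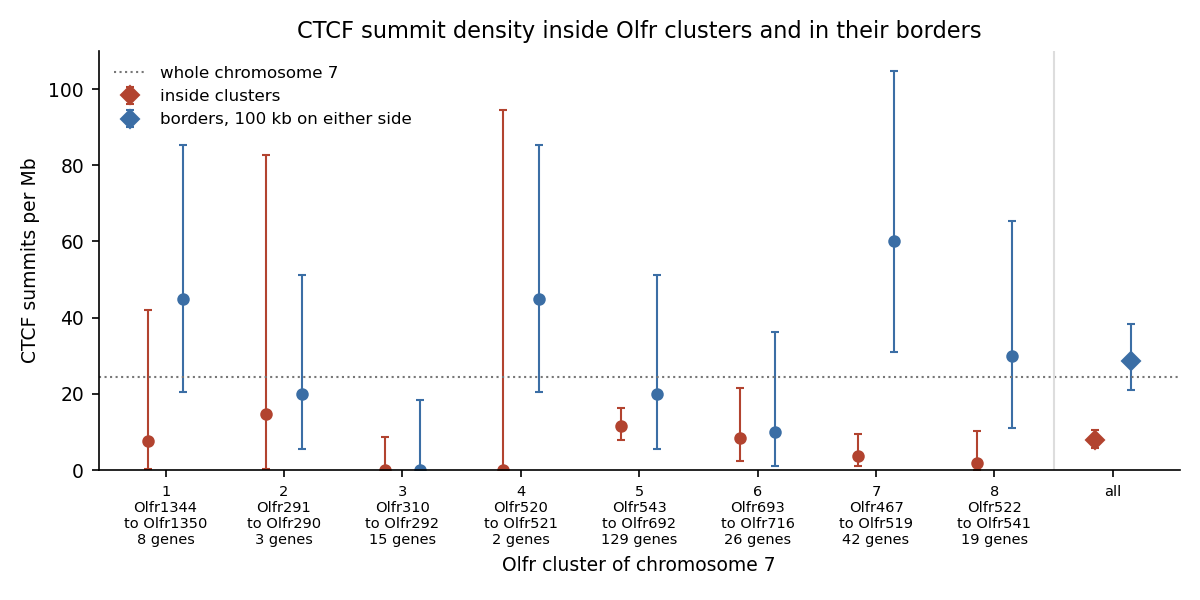
CTCF summits per Mb (y axis) inside each Olfr cluster of chromosome 7 (red, left of each pair) and in its 100 kb borders (blue), with exact 95% Poisson intervals. Diamonds give all clusters together, 7.82 inside and 28.8 in the borders, and the dotted line is the 24.4 per Mb of the whole chromosome.

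Among the smaller clusters, that from Olfr467 to Olfr519 (cluster 7, 42 genes, chr7:107812263-108894420) held 4 summits inside and 6 in each border, a ratio of 0.0616 (0.0145 to 0.203). The cluster from Olfr522 to Olfr541 (cluster 8, 19 genes, chr7:140159999-140705606) held 1 summit inside and 6 in its left border, a ratio of 0.0611 (0.00133 to 0.504). These were the 2 clusters whose own interval left out 1. The cluster from Olfr693 to Olfr716 (cluster 6, 26 genes, chr7:106675005-107150581) held 4 summits inside and 2 in the borders, and its ratio of 0.841 (0.121 to 9.30) was not distinguishable from 1. The clusters from Olfr1344 to Olfr1350 (cluster 1, 8 genes, chr7:6438688-6571401) and from Olfr291 to Olfr290 (cluster 2, 3 genes, chr7:84853553-84920861) held 1 summit each, with 9 and 4 in their borders. The pair Olfr520 and Olfr521 (cluster 4, chr7:99730273-99769321) had none between or within them and 9 in the borders. The 15 genes from Olfr310 to Olfr292 (cluster 3, chr7:86268487-86697507) had no summit inside and none in either border. These borders hold starts of vomeronasal receptor genes, Vmn2r75 and Vmn2r76 on the left and Vmn2r77 on the right. The right border also holds the start of another coding gene, Folh1. Thus 7 clusters were sparser inside than at their borders, 1 had no summit in either, and 5 of the 16 border zones were themselves empty.

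The density was lower inside within the first 200 kb from a cluster end as well. In steps of 20 kb, density inside the clusters lay between 4.70 and 18.7 per Mb over the first 200 kb from an end, and density outside lay between 18.8 and 50 per Mb over the same distance. The step just inside an end, within 20 kb of it, held 2 summits or 6.27 per Mb (0.759 to 22.6). The adjoining 20 kb outside held 6 summits or 18.8 per Mb (6.88 to 40.8), and these intervals overlap. The highest step, 50 per Mb (28.6 to 81.2), was 60 to 80 kb outside.

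**Figure D2:**
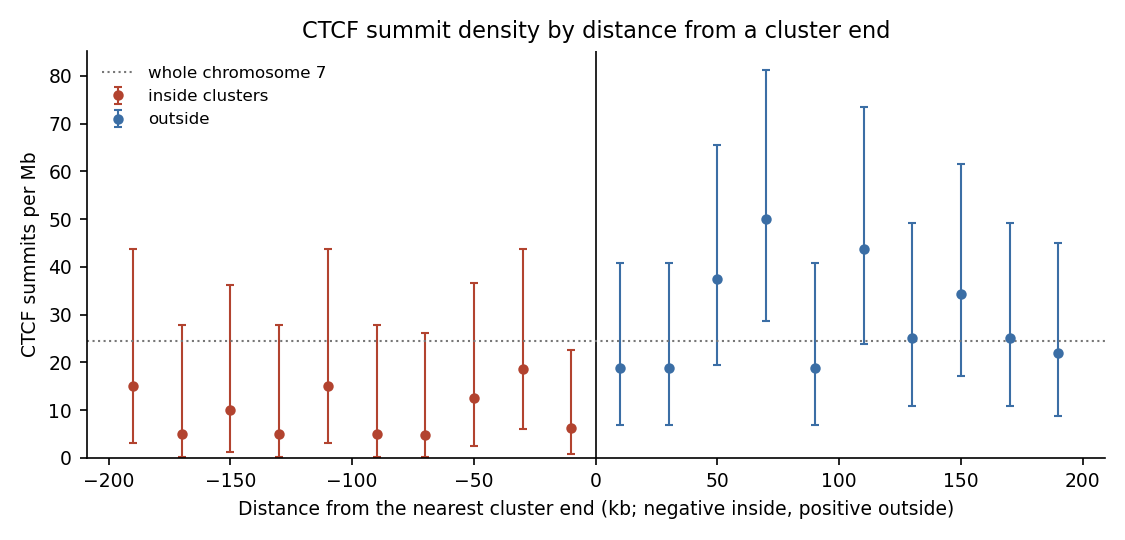
CTCF summits per Mb (y axis) in steps of 20 kb by distance from the nearest end of an Olfr cluster (x axis, kb; negative inside, red, and positive outside, blue), with exact 95% Poisson intervals. The inside steps run from 4.70 to 18.7 per Mb and the outside steps from 18.8 to 50, and the dotted line is the whole chromosome at 24.4.

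Few receptor promoters carried CTCF. A summit lay within 1 kb of an annotated start for 4 of the 244 members, 1.64% (exact 95% interval 0.448 to 4.14). The share over all protein-coding genes was 34.6%, and over the other coding genes of chromosome 7 it was 571 of 1779 or 32.1% (29.9 to 34.3). Olfr genes of other chromosomes had 6 of 891, 0.673% (0.248 to 1.46), an interval that overlaps that of chromosome 7. Of 16 genes known for receptor choice or odour signalling, 8 had a promoter summit in these hearts. Among these 16, Ldb1, a cofactor in receptor enhancer hubs, and Adcy3, the adenylyl cyclase of odour signalling, had one, whereas Lhx2, the homeodomain protein of those hubs, and Omp, a marker of mature sensory neurons, had none.

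The 4 members were Olfr658, Olfr557, Olfr556 and Olfr516. The summit of Olfr557 stood 329 bp upstream of its start with a signal of 689, and in the lists of single pools it had 358 in pool G and 335 in pool H. The summit of Olfr556 stood 630 bp into the gene with a signal of 542, and with 284 in pool G and 257 in pool H. Both are class I receptors near the left end of the largest cluster, and both sites carry the core shown above in unmasked sequence. The summit of Olfr658 was the closest to a receptor start, 25 bp upstream, with a signal of 180, and with 96.7 in pool G and 83.0 in pool H, and no core was found there. The summit of Olfr516, in cluster 7, stood 852 bp upstream with a signal of 136, and with 79.5 in pool G and 58.8 in pool H. Its core lies in soft-masked sequence, the part of the assembly marked as repeats. In all 4 the pool G value was above the pool H value.

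These starts are those of GENCODE M21, which include non-coding first exons. RefSeq places the start elsewhere for most receptors: of 207 RefSeq starts matched by symbol, 157 lay more than 1 kb from the GENCODE start and the median distance was 2.72 kb. None of the 207 had a summit within 1 kb, which allows a share of up to 1.77%. That range holds the 1.64% found by GENCODE starts. RefSeq starts were matched for 208 of the 244 members, and it is not shown here whether the 4 members were among them. The count of 4 was thus not repeated with RefSeq starts, for a reason that was not tested. The 34.6% of all genes is by GENCODE starts, and no such share was computed by RefSeq starts. The RefSeq promoters of members, from 250 bases before to 50 after the start on GRCm38.p6, held the core in 5 of 207 (2.42%, 0.789 to 5.55), against 8.38% of 32851 RefSeq promoters of all genes.

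The next nearest members were Olfr67, with a summit at 1.25 kb, Olfr633 at 1.50 kb, Olfr554 at 1.52 kb, Olfr655 at 1.61 kb, Olfr701 at 1.88 kb and Olfr571 at 2.3 kb. All but Olfr701 belong to the largest cluster. Olfr558, a receptor of short-chain fatty acids that is also expressed outside the nose, had its nearest summit 6.63 kb away, and this was the Olfr557 site. Olfr78, a receptor of short-chain fatty acids and lactate known from the carotid body and kidney, had its nearest summit at 7.19 kb, inside its own gene model and that of Olfr560, with a signal of 334. Olfr2, the octanal receptor known as I7, was 38.3 kb away, and Olfr17, the P2 receptor used in studies of axon targeting, was 47.2 kb away. The well-studied receptors thus spanned ranks 23 to 112 of 244 by distance.

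Over all members the median distance from the start to the nearest summit was 61.8 kb (quartiles 19.4 and 205), against 6.84 kb (1.05 and 26.5) for the other coding genes of the chromosome. In the largest cluster the median was 33.7 kb and in the other clusters 124 kb. More than 50 kb separated 131 of the 244 members from any summit, and 329 of the 1779 other coding genes of the chromosome. The farthest was Olfr299 in cluster 3, at 642 kb.

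**Figure D3:**
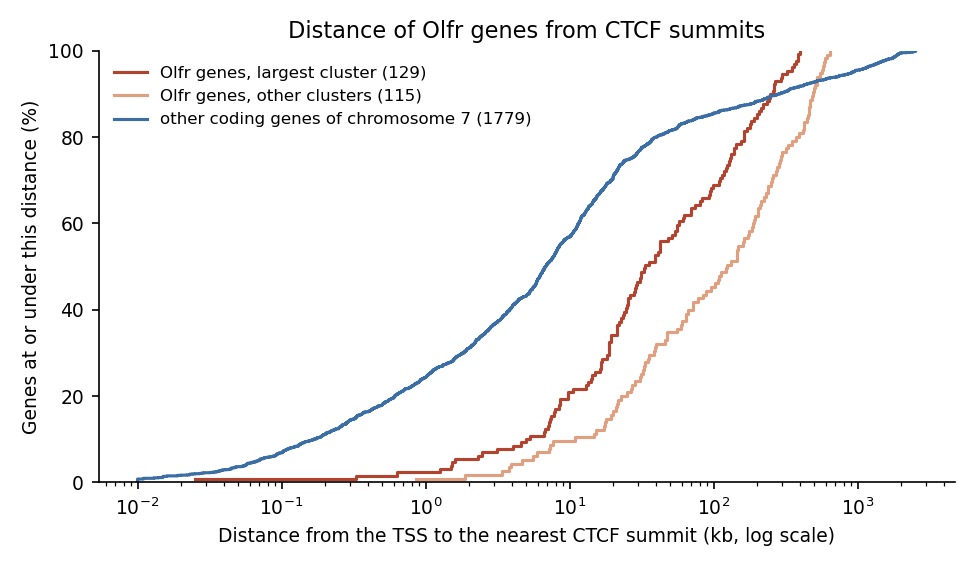
Cumulative share of genes (y axis, %) by distance from the start to the nearest CTCF summit (x axis, kb, log scale; distances under 0.01 kb are drawn at 0.01 kb) for the 129 Olfr genes of the largest cluster, the 115 of the other clusters and the 1779 other coding genes of chromosome 7. The medians are 33.7, 124 and 6.84 kb.

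Within the clusters, summits were unevenly spread over kinds of ground. Receptor gene bodies held 4 summits in 1.58 Mb, or 2.53 per Mb (0.690 to 6.48), namely in Olfr556, in the shared stretch of Olfr560 and Olfr78, in an exon of Olfr699 and in an intron of Olfr701. Gaps between receptors with no other coding gene held 26 in 3.13 Mb, or 8.32 per Mb (5.43 to 12.2). Gaps with another coding gene held 14 in 0.919 Mb, or 15.2 per Mb (8.33 to 25.6). Bodies over gaps without another gene gave a ratio of 0.304 (0.0772 to 0.878). That difference was lost in other lists: the ratio was 0.513 (0.189 to 1.21) in the second list of both pools and 0.475 (0.159 to 1.19) in the pool H list. The gene model of Olfr643 spans 139 kb of the body ground and held no summit. Receptor ground alone, bodies and gaps without another gene together, stayed below the borders of all clusters at a ratio of 0.222 (0.135 to 0.359). Gaps with other genes were also below the borders of all clusters, at 0.530 (0.269 to 0.981). Against the largest cluster's own borders, with 20.0 summits per Mb (5.45 to 51.2), neither contrast could be told. Its gaps with other genes held 17.4 per Mb (9.52 to 29.2), an interval that overlaps. Its receptor ground gave a ratio of 0.464 (0.154 to 1.87) over its own borders.

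All 14 summits of mixed gaps lay in the largest cluster, in 4 of its gaps. The gap from Olfr649 to Olfr651 holds 10 Trim genes, a family of RING-finger proteins with antiviral members, and had 9 summits in 354 kb, or 25.4 per Mb (11.6 to 48.2). The gap around the Hbb interval had 3 summits in the 46.9 kb outside that interval. The short gaps with Trim21, a cytosolic antibody receptor, and with Trim68 had 1 each, and that beside Trim68 was the Olfr557 site. The other 5 mixed gaps, which hold Usp17l, Ubqln, Olfm5, Cd163l1 and similar genes, had none. Of the 25 other coding genes inside clusters, 6 had a promoter summit, 24.0% (9.36 to 45.1). That interval holds the shares of all coding genes, 34.6%, and of the other coding genes of chromosome 7, 32.1%. All 6 were Trim genes: Trim21, Trim34a, Trim12a, Trim30b, Trim30a and Trim30d. The Trim12a summit lay 915 bp from the start of a transcript, but 15.3 kb from the 5′ end of the gene model. On receptor ground alone the largest cluster still had the higher density, with 19 summits or 9.28 per Mb against 11 summits or 4.14 per Mb in the other clusters. That ratio was 2.24, and its interval of 1.01 to 5.21 barely left out 1.

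**Figure D4:**
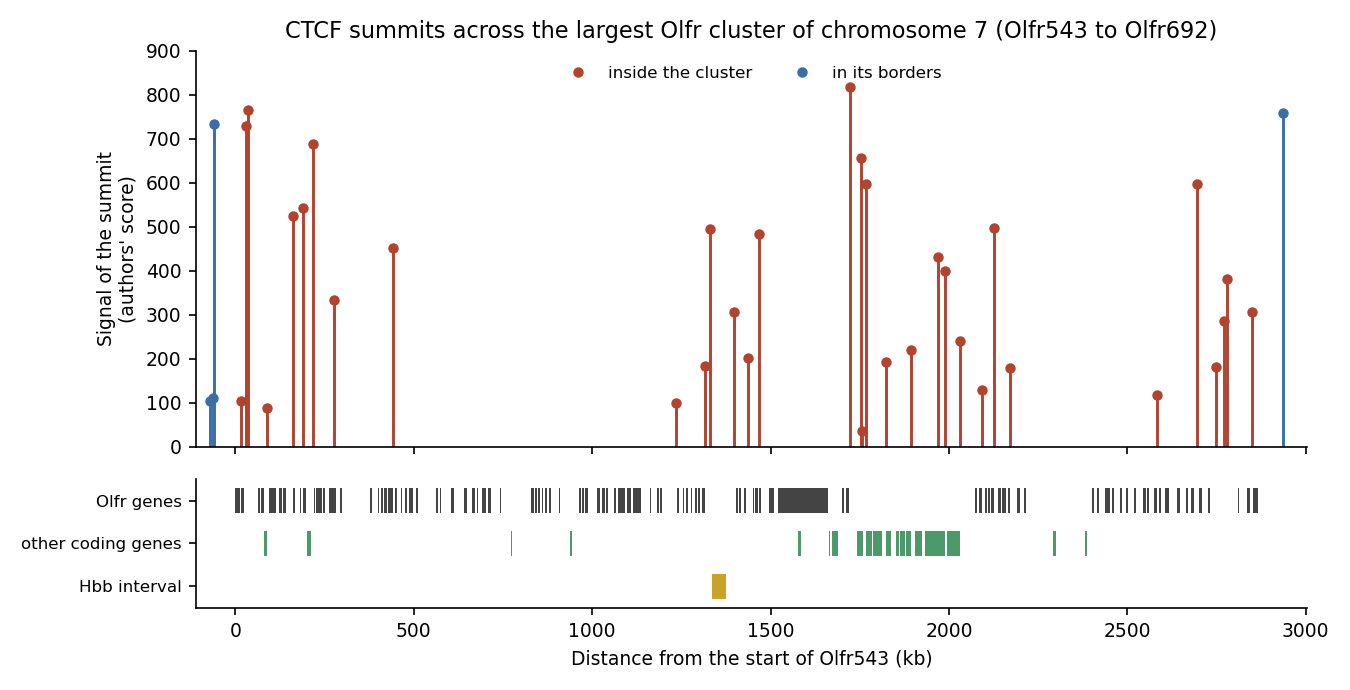
CTCF summits inside the largest Olfr cluster (red) and in its borders (blue), as signal (y axis, the authors' score) against distance from the start of Olfr543 (x axis, kb), above the positions of Olfr genes, other coding genes and the Hbb interval that was left out. Summits stand at the left end, around the Hbb interval, in the stretch of Trim genes and at the right end, and 792 kb with 44 receptor starts hold none.

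Where CTCF was bound inside the clusters, its signal covered much the same range as in the borders. The median signal was 307 inside (lowest 35.4, quartiles 182 and 505, highest 817) and 318 in the borders (lowest 71.5, quartiles 128 and 592, highest 776). Signals at or above the median of the whole list, 286, were reached by 25 of 44 summits inside (56.8%) and 26 of 46 in the borders (56.5%). The difference of the medians was -0.05 on the log2 scale. In the single pools it was +0.11 for pool G (174 inside, 162 in the borders) and -0.24 for pool H (128 inside, 151 in the borders), so it did not keep its sign between the pools. With borders of 50 kb the median of their 17 summits was 486, and the difference was -0.66.

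The strongest summit inside lay between Olfr649 and Trim6 (chr7:104199713-104200287, summit at 104200008), with a signal of 817. It was missing from both thresholded lists of single pools, although the ranked lists gave it 427 in pool G and 390 in pool H. Its scaled IDR there was 223 and 325, where 540 stands for an irreproducible discovery rate of 0.05, whereas it was 1000 in the conservative list. A pair of summits 6.25 kb apart near Olfr545 followed, at 102513273 with a signal of 765 (407 in pool G, 366 in pool H) and at 102507027 with 729 (372 in pool G, 357 in pool H). The stronger of this pair had no core and the weaker had the Olfr545 site printed above. Next were the Olfr557 site at 689 and an intron of Trim6 at 656 (357 in pool G, 297 in pool H). The Trim6 interval held a further, much weaker summit 211 bp away, with 35.4 in the conservative list, the lowest value inside a cluster.

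A summit near Olfr684 followed at 598 (315 in pool G, 284 in pool H), and it had no core. The promoter of Trim34a had 598 as well (320 in pool G, 281 in pool H), and the summit stood 58 bp upstream of its start. Outside the largest cluster the strongest inside were near Olfr713 in cluster 6 at 565 (307 in pool G, 260 in pool H) and near Olfr514 in cluster 7 at 547 (309 in pool G, 245 in pool H). With Olfr556 at 542 these were the 10 strongest, and 8 of them lay in the largest cluster.

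The border zones had strong sites of their own. Of the 11 border zones with any summit, the strongest ones were at Eif3f right of cluster 7 (776), right of the largest cluster near Cnga4 (758), in Stim1 left of it (733), in Mtg1 left of cluster 8 (717), near Neu3 right of cluster 4 (706) and in Slco2b1 left of it (702). The 2 zones of cluster 1 reached 616 on the left and 627 on the right, the left zone of cluster 7 reached 619, that of cluster 2 reached 559 and the right zone of cluster 6 reached 324. Stim1 encodes the calcium sensor of the endoplasmic reticulum and Eif3f a subunit of a translation initiation factor. Only the right zone of cluster 6 stayed below 500.

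The pools shared nearly all of the summits inside the clusters. Of the pool G summits inside clusters 41 of 43 had a pool H summit within 100 bp, 95.3% (84.2 to 99.4), against 40 of 49 in the borders, 81.6% (68.0 to 91.2). Of the pool H summits it was 41 of 42 inside, 97.6% (87.4 to 99.9), and 40 of 42 in the borders, 95.2% (83.8 to 99.4). Over all of chromosome 7 the shares were 84.8% for pool G and 90.6% for pool H, and each lies within the interval given for the inside. Among conservative summits in both pool lists, the pool G signal was above the pool H signal at 40 of 41 inside and 39 of 40 in the borders. The median ratio of pool G to pool H was 1.26 inside, 1.18 in the borders and 1.20 over chromosome 7. This signal grows with depth, which is unknown for the pools, so the ratio cannot be read as a difference in binding.

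**Figure D5:**
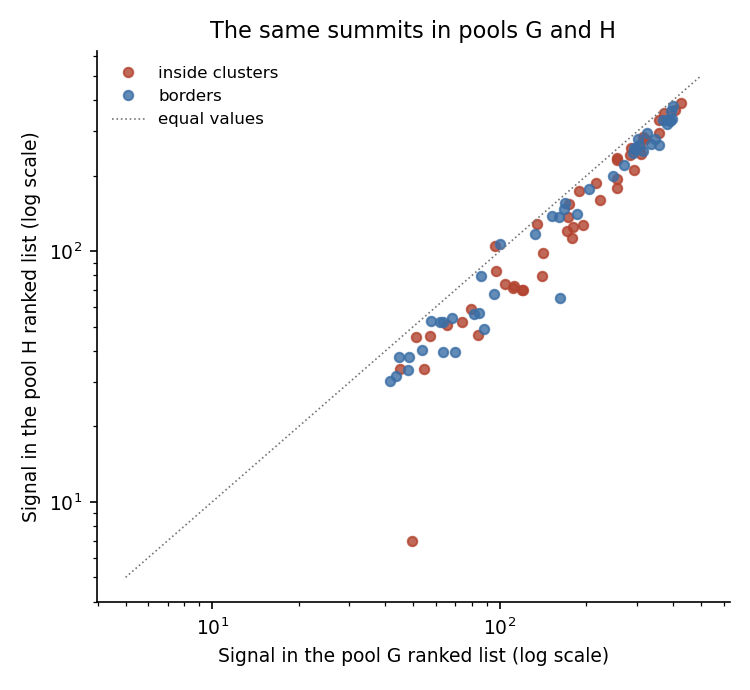
Signal of each conservative summit in the ranked list of pool G (x axis) and of pool H (y axis), both log scales in the authors' score, for the 44 summits inside Olfr clusters (red) and the 46 in the borders (blue), with a dotted line at equal values. The 1 low point is the weak second summit of the Trim6 interval, at 49.7 in pool G and 6.96 in pool H.

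Most sites inside the clusters held a CTCF core. A core was found at 32 of 44 summits inside, 72.7% (57.2 to 85.0), and at 28 of 46 in the borders, 60.9% (45.4 to 74.9). Over chromosome 7 it was 2306 of 3462, 66.6%, and a core stood in 4.16% of windows of the same length along the chromosome. The intervals for the clusters and their borders overlap. Without a mismatch the counts were 16 inside (36.4%) and 18 in the borders (39.1%), against 0.632% of windows. Core and summit lay a median of 6.5 bp apart both inside and in the borders. Of the inside cores 14 were on the plus and 18 on the minus strand. In the borders 11 cores pointed towards the cluster and 17 away from it.

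Signals at sites with a core were above those without one, by more in the borders than inside; that contrast was not tested. Inside, the median signal was 328 at the 32 summits with a core and 297 at the 12 without one. In the borders it was 553 at the 28 with a core and 142 at the 18 without. The summits without a core inside included sites as strong as 765, near Olfr545, and 598, near Olfr684.

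Copies of the core were fewer inside the clusters, and a smaller share of them stood under a summit. With up to 1 mismatch there were 174 copies per Mb inside and 247 per Mb in the borders, a ratio of 0.704 (0.626 to 0.794). That interval does not overlap that of the summit density, 0.176 to 0.421. Without a mismatch there were 17.2 copies per Mb inside and 35.6 in the borders, a ratio of 0.484 (0.346 to 0.684), whose interval overlaps that of the summit density, 0.176 to 0.421. A summit lay within 100 bp of 3.48% of the copies inside (2.42 to 4.82) and of 7.59% of those in the borders (5.18 to 10.7). Outside soft-masked sequence there were 62.9 copies per Mb with up to 1 mismatch inside and 104 in the borders. Their density ratio was 0.607 (0.503 to 0.734), and a summit stood at 7.63% (5.09 to 10.9) inside and 12.7% (8.0 to 18.7) in the borders. Of the copies without a mismatch, only 40 of 97 inside and 20 of 57 in the borders were unmasked. The density ratio of these unmasked copies was 0.569 (0.325 to 1.03), so no difference was called for them. Copies without a mismatch in unmasked sequence had a summit at 12 of 40 inside, 30% (16.6 to 46.5), and at 14 of 20 in the borders, 70% (45.7 to 88.1). These last intervals touch, and copies in duplicated sequence are not independent of each other.

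Several sites in the clusters were near-identical in sequence. They are shown in pairs because each pair holds the same or nearly the same 30 bases, with signals that are close in one case and far apart in others. The first pair has 1 member in the left border of cluster 2, at chr7:84805417-84805428 on the plus strand, and 1 inside it, at chr7:84884719-84884730 on the plus strand. The second pair stands near Olfr469 and Olfr470 in cluster 7, at chr7:107819635-107819646 and chr7:107841911-107841922, both on the minus strand. The third pair stands at Trim34a and Trim12a, at chr7:104244385-104244396 and chr7:104300115-104300126, both on the minus strand. The last lines give Trim30a, at chr7:104465282-104465293, and Trim30b, at chr7:104369959-104369970, both on the plus strand. Capitals again mark the core.
Cluster 2 border site: aaagtaaagCCACTAGGTGGCagtctgtcc
Cluster 2 inside site: aaagtaaagCCACTAGGTGGCagtctgtcc
Olfr469 site: aatatctcaCCACTAGGGGGCtctgttaca
Olfr470 site: aatgtctcaCCACTAGGGGGCtctgttaca
Trim34a site: tctaggccaCCAATAGATGGCaatgcaggg
Trim12a site: tctaggccaCCAATAGATGGCaatgcaggg
Trim30a promoter site: ggagttttaCCACCAGAGGGAgtcagttgc
Trim30b promoter site: ggggttttaCCACCAGAGGGAgtcagttgc

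The cluster 2 pair was identical over the 30 bases and lay 79.3 kb apart, with a signal of 80.5 inside the cluster (45.0 in pool G, 34.0 in pool H) and 289 in its border (152 in pool G, 137 in pool H). Over the 201 bases around the core, compared without gaps, they shared 56.7%. The Olfr469 and Olfr470 sites differed at 1 of the 30 bases and lay 22.3 kb apart, with close signals of 294 and 264. They shared 42.3% of the 201 bases without gaps. The Olfr469 site stood 5.90 kb downstream of that gene's start, and the Olfr470 site 5.58 kb downstream of its own. The Trim34a and Trim12a sites were identical over 30 bases and shared 93% of 201, with signals of 598 and 193. The Trim30a promoter site shared 95% of 201 bases with that of Trim30d, whose 30 bases are the same, and had 400 where Trim30d had 240. Trim30b, at 1 difference, had 221, and an intron of Trim30a, within 2 differences of the others, had 432. Across the 1770 pairs of the 60 sites with a core the median identity was 29.4%, and 4 pairs reached 70%, all of them among these Trim sites. Where sequences are this alike, reads may be assigned to either copy, and the authors' treatment of such reads was not stated in the labels or readme texts.

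Several sites shared a core in repeat sequence. The word CCAGAAGAGGGC was the core at 7 summits, 4 inside and 3 in the borders, and each of the 7 cores lay in soft-masked sequence. Their signals ran from 111 to 380 with a median of 138, and the strongest, near Olfr688, was above the inside median of 307. The clusters hold 50 copies of the word in 5.62 Mb and the borders 31 in 1.6 Mb. Inside, these summits stood near Olfr1349 in cluster 1, near Olfr688 in the largest cluster, in Olfr699 and near Olfr6 in cluster 6. The lines below print 1 site of each cluster, at chr7:6526347-6526358 on the minus strand, chr7:105256848-105256859 on the plus strand and chr7:106788546-106788557 on the minus strand, and they are shown because they hold this word.
Olfr1349 site: ccaaacaggCCAGAAGAGGGCgacagatcc
Olfr688 site: ccataggggCCAGAAGAGGGCggcagagcc
Olfr699 site: tcaaacataCCAGAAGAGGGCattgcatcc

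Sequence inside the clusters was more repetitive than in the borders. Soft-masked bases made up 45.0% inside and 37.5% in the borders, and the GC content was 39.4% inside and 42.3% in the borders. Words of 50 bases that occur once in the assembly began at 81.8% of positions inside and 91.6% in the borders, and words of 100 bases at 91.0% and 96.7%. Over the whole chromosome these shares were 83.8% and 89.5%. All 44 and all 46 summits stood at positions of unique 50-base words. Over such positions alone the density ratio was 0.305 (0.197 to 0.471), and outside soft-masked sequence it was 0.316 (0.198 to 0.503).

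Long stretches of receptor genes held no summit at all. The longest ran 1292 kb, from a summit at 85818296 to the next at 87110763, was the sixth longest interval between summits on chromosome 7 and held the 15 genes of cluster 3. Only 33.2% of that interval lay inside clusters. Within cluster 7, 973 kb held 35 receptor starts between the Olfr470 site and the site near Olfr514. Within the largest cluster 792 kb held 44 starts, between the site near Olfr571 and that near Olfr243. The median interval on the chromosome was 13.6 kb. Of its 20 longest, 4 touched a cluster, and these held 96 member starts. The shares of these 4 that lay inside clusters were 33.2%, 100%, 3.87% and 100%, in order of length.

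In fixed windows of 100 kb the share without a summit was 32 of 56, 57.1% (43.2 to 70.3), for windows mostly inside clusters. It was 501 of 1348, 37.2% (34.6 to 39.8), for windows outside them, and 38.0% over all windows of the chromosome. The mean was 0.804 summits per window inside and 2.52 outside, with a maximum of 4 inside and 18 outside.

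The gap was also there among candidates that missed the authors' threshold. The ranked list behind the conservative one held 60 such candidates inside, 10.7 per Mb, and 73 in the borders, 45.6 per Mb, a ratio of 0.234 (0.163 to 0.334). The ratio was 0.305 (0.208 to 0.449) in the ranked list of pool G and 0.236 (0.155 to 0.359) in that of pool H. Inside, 43 of the 60 candidates lay in the largest cluster. Cluster 3, without any summit, had 5 candidates with signals up to 58.6. A core stood at 25 of the 60 candidates inside, 41.7% (29.1 to 55.1), and at 21 of 73 in the borders, 28.8% (18.8 to 40.6).

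The sparseness was shared with receptor clusters elsewhere. On 17 other chromosomes, 891 Olfr genes formed 47 clusters by the same rule, with 6.55 summits per Mb inside and 31.7 in the borders, a ratio of 0.207 (0.170 to 0.250). Chromosome 7 over the other chromosomes gave 1.19 inside (0.837 to 1.67) and 0.907 in the borders (0.650 to 1.24), and neither left out 1. On the 11 other chromosomes with at least 20 Olfr genes the density inside ran from 0.984 to 19.1 per Mb. It was above that of chromosome 7 on 5 of them, and below that of their own borders on all 11. On chromosomes 4, 17 and 19 the interval of the ratio of inside to borders included 1.

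Vomeronasal receptors, which detect pheromones in a separate organ of the nose, stand in clusters on chromosome 7 as well. The 154 Vmn1r and Vmn2r genes formed 10 clusters with 2.41 summits per Mb inside (1.64 to 3.42) and 8.50 in the borders (4.95 to 13.6). Olfr clusters were denser than these by a ratio of 3.25 inside (2.00 to 5.32) and 3.38 in the borders (1.90 to 6.29). The ratio of inside to borders was 0.272 for Olfr and 0.283 (0.152 to 0.546) for the vomeronasal receptors. Some Vmn2r genes start in borders of Olfr clusters, so the ground of the families is not fully separate.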

How the data were processed

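CTCF ChIP-seq peak lists from hearts of 2 pools of female B6CASTF1/J mice were analysed. The readme texts of the samples tie each list to its pool, and the build is mm10, per the labels. Per those readme texts, the authors made thresholded and ranked lists from each pool and from both pools, with a control alignment. They name no aligner or peak caller. The authors deposited 2 scores for each peak: a signal without a stated unit, which grows with depth, and the irreproducible discovery rate (IDR) on a scale where 540 is a rate of 0.05 and 830 a rate of 0.01. The lists give no read totals, so depth is unknown and the intervals cover counting error over summits, genes or core copies only.

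The conservative list was the main one. Genes came from GENCODE M21 and sequence from GRCm38.p6, with RefSeq promoters of that build. Distances to the nearest summit were taken from the 5′ end of the gene model, and promoter summits were those within 1 kb of the start of any of its transcripts. Densities were compared by their ratio with an exact conditional 95% interval, and shares have exact Clopper-Pearson intervals. A difference was called where the interval of the ratio left out 1, and no p-values were computed. Cores were sought on both strands as a 12-base consensus, and a copy counts as near a summit within 100 bp. Unique words of 50 and 100 bases were counted over the whole assembly. The software was numba 0.67.0, scipy 1.17.1, matplotlib 3.10.9, pandas 2.3.3 and numpy 2.4.6 under Python 3.11.15. The scripts were tested on simulated data.

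The members, clusters and gene lists were chosen with earlier results of these data known. The receptor genes named by rule are those with a summit within 1 kb, the 10 nearest a summit and 4 well-studied receptors (Olfr2, Olfr17, Olfr78 and Olfr558). Ldb1, Adcy3, Lhx2 and Omp were named outside that rule, from the list of 16 genes for which only counts were planned. The summits named are the 10 strongest inside, the strongest of each border and those near receptor starts. The kinds of ground by cluster, the mixed gaps, RefSeq starts, repeated words and near-identical sites were added after seeing the data, and the genes named with them were chosen after their values were seen.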

Additional observations from a re-analysis of the deposited data

How the results depend on the processing

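The density ratio of 0.272 kept its direction, and its interval left out 1, under all 27 alternatives, 3 of them chosen after seeing the data. Among them were other lists, a stricter IDR, other joining and border distances, and Hbb kept or left out more widely. Others took 1 summit per interval, strong summits alone, unique or unmasked bases, or left out each cluster. Not all were separate checks, as the stricter IDR removed no summit. Taking the clusters other than the largest repeats leaving that cluster out, and taking clusters with at least 3 genes repeats leaving out cluster 4. The ratio ran from 0.132 to 0.368, and from 0.132 to 0.363 with 1 cluster left out. Its lowest value was without the largest cluster. The log2 difference in median signal, -0.05, moved beyond the 0.247 SD between the pools' own values with borders of 50 kb (-0.66), and ran from -0.27 to 0.06 with 1 cluster left out. The core share inside was 36.4% without a mismatch. Members with a promoter summit made up 9.43% (23 genes) within 5 kb and 0% by RefSeq starts. By the 5′ end of the gene model alone, 18 of 244 members had a summit within 5 kb. The same held for 767 of the 1779 other coding genes of chromosome 7. In comparisons of lists chosen after seeing the data, gene bodies over gaps without another coding gene lost their difference in the second list (0.513) and in pool H (0.475). The cause of these shifts was not tested, apart from the wider window and the stricter match. The ratios of candidates, and of the largest cluster over the others, kept their calls in every list run. No paired analysis was possible because the lists carry no values for single libraries and no groups were compared across replicates.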
